A study of Drosophila melanogaster with 12 samples.

Results

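The account below sets sorted wing disc cells with the DNA content of G1 against S2 cells sorted through the same kind of gate. Its members are 6 of the 12 arrays of the series, 3 of wing disc G1 and 3 of S2 G1, chosen by their labels for cell type and cell cycle stage. The remaining 6 arrays hold the G2 fractions of the same cells and are used where a difference in G1 is tested against the difference in G2.

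The study sorted developing wing cells and cultured cells by DNA content and measured polyadenylated RNA on Affymetrix arrays, to ask how the transcription program of the cell cycle depends on cell type. Wing disc G1 stands for cells of the 2C peak from OreR discs, a wild-type strain, taken from larvae of instar 3 that had begun to wander and had grown at 25 °C and low density. S2 G1 stands for cells of the 2C peak from S2 cultures that had gone through fewer than 30 passages. No transgene, mutation or drug is given for any group, and 100 ng of total RNA was amplified and labelled with biotin for each sample. A dissected disc holds the columnar wing and notum epithelium, the overlying peripodial cells, muscle precursors and tracheal cells, and the sort selects none of them. The sex of the larvae and the S2 subline are not given. Dissection and dissociation of tissue on one side and suspension culture on the other go with the cell type, so their parts in a difference cannot be told apart. Whether the 3 arrays of a group stand for independent cultures or dissections is not in the labels, so the spread behind the p-values may be technical.

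The wing imaginal disc is a sheet of epithelial cells in the larva that grows, is patterned by Hedgehog, Dpp, Wingless, Notch and EGF receptor signals, and becomes the wing and much of the thorax of the adult at metamorphosis. Selector transcription factors give its regions their identity, and septate and adherens junctions hold its cells together. S2 cells are a line from late embryos that resembles macrophage-like haemocytes, the blood cells that engulf particles, make basement membrane and respond to bacterial cell walls.

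Array medians on the log2 scale were 4.30 to 4.36 in wing disc G1 and 4.21 to 4.27 in S2 G1, and 41.6% to 41.9% and 40.6% to 40.9% of probe sets reached a log2 intensity of 5. Correlations between arrays were 0.9924 to 0.9941 within wing disc G1, 0.9884 to 0.9944 within S2 G1, and 0.659 to 0.6681 between them. S2 G1 replicate 6 had the lowest array weight, 0.278, against 0.823 to 2.0467 for the other 5 arrays, and results that depend on it are given without it. Arrays give no counts, and their number limits the precision. The file holds no detection calls, so a log2 value under 5 is read here as near background, and a fold change against such a value is limited by that background.

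Wing disc and S2 cells of the 2C gate differed over most of the transcripts measured. Of 8326 probe sets that reached a log2 intensity of 5 on 3 or more of the 6 arrays, 6091 (73.2%) passed an adjusted p under 0.05, with 2947 (35.4%) higher and 3144 (37.8%) lower in wing disc. When each gene was followed through its brightest probe set, 5026 of 6768 genes (74.3%) passed, 2353 (34.8%) higher and 2673 (39.5%) lower, and their median difference was -0.04 on the log2 scale. The change was also 2-fold or more in 1129 genes (16.7%) higher and 1440 genes (21.3%) lower in wing disc. Subtracting array medians moved that median to 0.08 and cyclic loess to 0.01, so small differences carry this shift. In 5356 genes (79.1%) every array of one group lay above every array of the other. A mean of at least 5 was reached in both cell types by 5746 genes, in wing disc only by 557, in S2 only by 461 and in neither by 4. Differences of 16-fold or more that passed were found for 211 genes on the wing disc side and 209 on the S2 side. With so many genes passing, the count of a gene list is read below against these shares, and a difference is always wing disc minus S2 on the log2 scale with the standard error of the fit at 3 arrays each. A gene near background in either cell type passes the filter only through the other, so its direction in a list count is fixed.

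**Figure D1:**
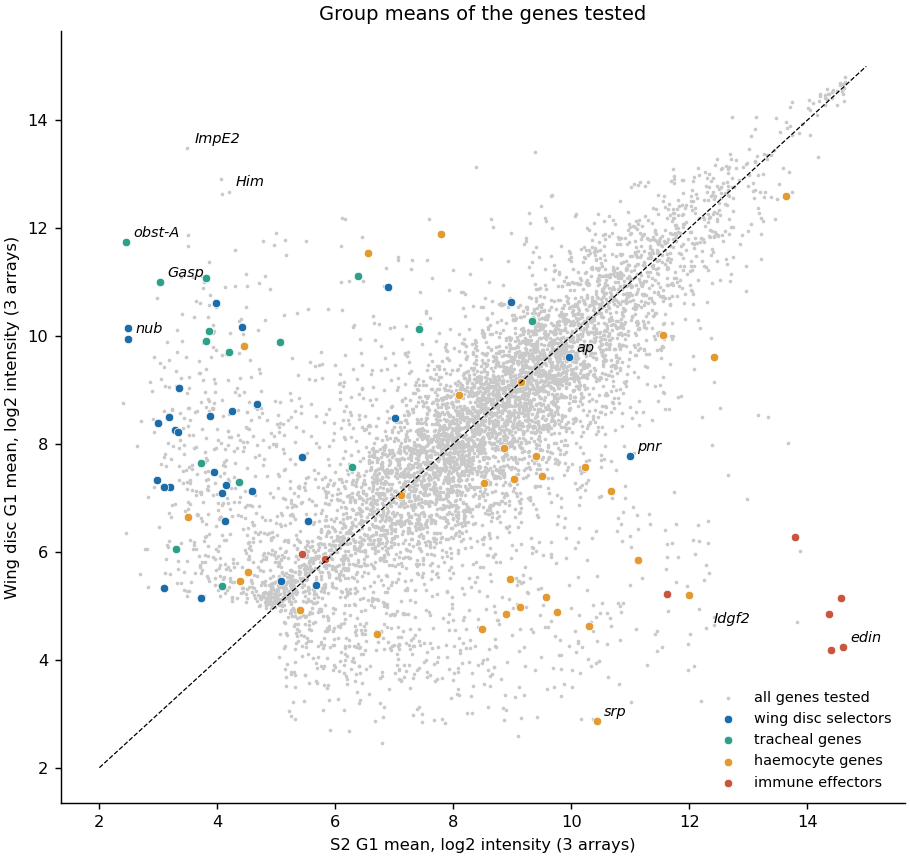
Mean log2 intensity in wing disc G1 (vertical axis) against S2 G1 (horizontal axis), 1 point per gene tested, with 4 marker lists in colour and the line of equal values dashed. Disc selectors and tracheal genes lie mostly above the line with S2 means under 5, haemocyte genes mostly below it, and 6 immune effectors at S2 means over 11 and disc means under 7.

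The 15 genes furthest apart on the wing disc side were led by ImpE2 and obst-A. ImpE2, named for its induction by ecdysone in imaginal discs, had log2 intensities of 13.66, 13.17 and 13.63 in wing disc G1, against 3.37, 3.71 and 3.39 in S2 G1 (difference 9.99 ± 0.16, adjusted p = 4.24e-09). The S2 arrays were all near background and the disc arrays near the top of the scale. The chitin-binding gene obst-A followed at 9.29 ± 0.11, with 11.68, 11.82 and 11.74 in wing disc and 2.34, 2.45 and 2.58 in S2. Next came CG31997 (8.85), the C-type lectin gene nw (8.56), the muscle precursor gene Him (8.49), the serpin gene Spn43Aa (8.37), the chitin deacetylase gene Cda4 (8.16) and the chitin-binding gene Gasp (7.97). CBP (7.72), wbl (7.70), noc (7.68), E(spl)m6-BFM (7.52), Phk-3 (7.51), nub (7.46) and tsl (7.36) completed the 15 highest. In these 15 genes the S2 means lay under 5, so the folds are set in part by the array's floor.

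On the S2 side the 15 furthest genes were led by edin, Mtk, AttD and DptB. The inducible immune gene edin had log2 intensities of 4.48, 4.26 and 3.97 in wing disc G1, against 14.58, 14.61 and 14.62 in S2 G1 (difference -10.37 ± 0.14, adjusted p = 3.23e-09). Those S2 values lie close to the highest value on any S2 array, 14.95, so the difference is bounded at both ends. Mtk (-10.21), AttD (-9.52) and DptB (-9.43), which encode antimicrobial peptides, followed. The RNA-binding protein gene blanks had 4.59, 4.41 and 5.07 in wing disc and 13.73, 13.98 and 13.78 in S2 (difference -9.14 ± 0.18). The others were CG6231 (-8.98), CG14273 (-8.19), the cytochrome P450 genes Cyp6a20 (-8.16) and Cyp6a8 (-7.79), Nplp2 (-7.87), the peroxiredoxin gene Prx6c (-7.78), the chitinase-like growth factor gene Idgf2 (-7.71), CG5958 (-7.69), the peptide transporter gene yin (-7.63) and srp (-7.57). In these genes the wing disc means lay near or under 5, except for Nplp2 at 6.01.

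The labelled cell types were checked against genes that define them. The wing pouch factor nub had 9.97, 10.24 and 9.65 in wing disc and 2.75, 2.24 and 2.49 in S2 (difference 7.46 ± 0.18). The wing selector vg, which acts with sd, had 9.35, 8.52 and 8.38 in wing disc and 4.52, 4.36 and 5.13 in S2 (4.08 ± 0.29, adjusted p = 4.17e-06). The apical determinant crb stood at 5.00 ± 0.24 and shg, which encodes E-cadherin, at 2.64 ± 0.13. In each of these 4 genes the groups were far from overlap. The GATA factor srp, which specifies haemocytes, was near background in wing disc with 2.89, 2.91 and 2.80, against 10.10, 10.69 and 10.51 in S2. The haemocyte genes Hml (-5.29 ± 0.23), Pxn (-4.39 ± 0.21) and eater (-3.92 ± 0.15) were lower in wing disc on every array. NimC1, the plasmatocyte receptor, was under the filter with means of 4.93 in wing disc and 4.67 in S2, so this haemocyte marker was not seen in S2. A probe set of their own was not found for sd, wg and PGRP-LC, which were not analysed here.

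The dorsal selector ap went against its place as a disc gene. It had 9.66, 9.63 and 9.53 in wing disc and 9.83, 10.10 and 9.96 in S2 (difference -0.36 ± 0.11, adjusted p = 0.0169), a small difference without overlap. It did not pass without wing disc G1 replicate 4 (-0.32), without S2 G1 replicate 5 (-0.29) or with array medians subtracted (-0.23). A second probe set of ap gave -2.80, also lower in wing disc.

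**Figure D2:**
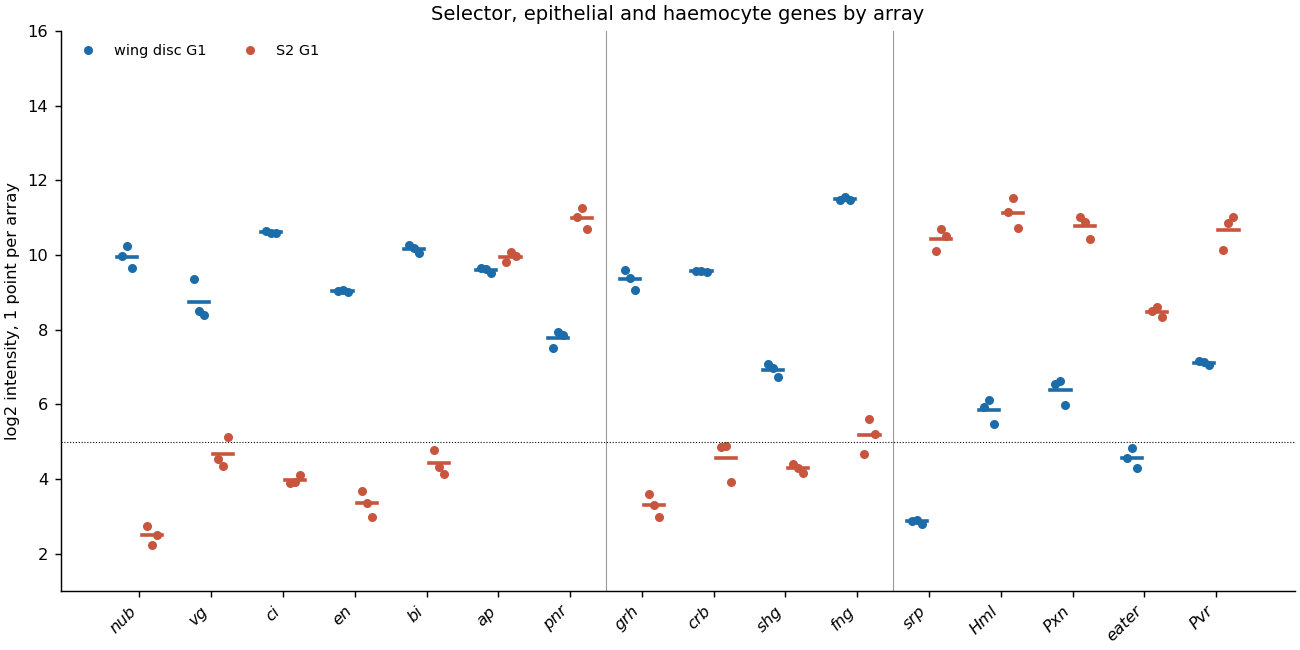
Log2 intensity on each array (points) with the group mean (bar), wing disc G1 in blue and S2 G1 in red, for selectors and pattern genes, epithelial genes with fng, and haemocyte genes; the dotted line marks 5. The disc arrays are above the S2 arrays for all genes of the first 2 blocks except ap and pnr, and below them for all 5 haemocyte genes.

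Transcription factors that pattern the disc were mostly higher in wing disc. Of 43 with a probe set, 32 passed the filter, and 28 of these were higher, 3 lower and 1 not past the threshold, while the median over all 43 was 2.32 against 0.03 over all 11981 genes with a probe set of their own. Factors of the posterior compartment were high in wing disc, with 9.03, 9.06 and 9.01 for en against 3.68, 3.36 and 2.99 in S2 (difference 5.69 ± 0.17), and with 3.09 for its neighbour inv. The anterior factor ci, which carries the Hedgehog signal, had 10.64, 10.59 and 10.60 in wing disc and 3.90, 3.92 and 4.12 in S2 (6.63 ± 0.10). For en and ci the disc arrays lay close together and far above all S2 arrays. The Dpp targets bi (5.75 ± 0.17) and salm (5.41 ± 0.16) were higher in wing disc, as were bab2, a leg and antenna factor (4.64 ± 0.11), Dll (3.54) and the notum and lateral genes ara (4.36), caup (5.32), eyg (2.43) and mirr (1.46). The hinge and body factor tsh was well above background in both, with 10.69, 10.60 and 10.59 in wing disc and 8.89, 9.17 and 8.89 in S2 (1.64 ± 0.11).

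A pair of notum genes was lower in wing disc. The GATA factor pnr had 7.52, 7.94 and 7.87 in wing disc and 11.03, 11.28 and 10.70 in S2 (difference -3.23 ± 0.17, adjusted p = 8.86e-07). Its cofactor ush, which also acts in haemocytes, stood at -2.09 ± 0.15. The sensory organ factor sens, the homeobox genes B-H1 and B-H2, and hb were among the 11 genes under the filter. The Hox gene Antp, which acts in the thorax, had 7.68, 6.66 and 6.04 in wing disc and 3.61, 3.39 and 3.49 in S2 (3.30 ± 0.35, adjusted p = 5.51e-05). Its wing disc arrays were widely spread and still lay above all S2 arrays. The other Hox genes with a probe set, pb, Dfd and Scr, were under the filter in both cell types.

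Genes of Wnt, Hedgehog and Dpp signalling were more often higher in wing disc. Of 29 with a probe set 27 were tested, with 20 higher, 1 lower and 6 short of the threshold, and the median over the 29 was 1.04. Among ligands, hh had 8.51, 8.64 and 8.55 in wing disc and 3.22, 2.94 and 3.96 in S2 (difference 5.19 ± 0.23), and Wnt6 stood at 3.38. The BMP ligand dpp differed less, with 7.40, 7.44 and 7.18 in wing disc and 5.75, 6.72 and 6.42 in S2 (1.04 ± 0.23, adjusted p = 0.0035). Both ligands were higher on every disc array, and dpp was above 5 in S2 as well.

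Several receptors and cofactors were higher in wing disc, but not all. The type II BMP receptor wit stood at 5.46 ± 0.17, the glypican dlp at 3.48 ± 0.14, the Hedgehog co-receptor ihog at 3.23 ± 0.16 and the secreted BMP modulator magu at 3.96 ± 0.15. The Hedgehog receptor ptc was close in both, with 5.05, 5.59 and 5.21 in wing disc and 5.10, 5.48 and 5.42 in S2 (-0.05 ± 0.17, adjusted p = 0.815), and the signal transducer smo stood at 1.04 ± 0.15. The type I receptor tkv depends on the probe set: its brightest gave 3.53 ± 0.15, and a second one, near background in wing disc at 3.35 against 8.73 in S2, gave -5.38. The feedback inhibitors nkd of the Wnt pathway (3.78) and Dad of the Dpp pathway (2.72) were higher in wing disc. The crossvein gene cv (-1.12) was the only tested gene of the list that was lower.

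Notch and EGF receptor genes were more often higher in wing disc. All 23 genes with a probe set were tested, with 16 higher in wing disc, 2 lower and 5 short of the threshold, at a median of 1.50. The 11 genes of the E(spl) and Bearded family that were tested are a set gathered after values were seen. All were higher, by 2.41 to 7.52 with a median of 6.26. Members near background in S2, such as Tom (mean 3.87) and Brd (4.13), entered through their disc arrays, so the filter fixed their direction. Genes under the filter are not in this count. E(spl)mdelta-HLH, a repressor of neural fate, had 11.50, 10.52 and 10.68 in wing disc and 3.16, 4.04 and 4.07 in S2 (difference 7.14 ± 0.32). E(spl)m3-HLH differed least among the HLH genes named here, at 2.95 ± 0.18, with 12.89, 12.36 and 12.54 in wing disc against 9.33, 9.84 and 9.77 in S2, and E(spl)mbeta-HLH stood at 4.74 ± 0.19. For most of this family the disc arrays were high and variable while S2 lay near background. The glycosyltransferase fng, which sets the Notch boundary, had 11.47, 11.56 and 11.48 in wing disc and 4.67, 5.61 and 5.22 in S2 (6.34 ± 0.21). The EGF receptor itself, Egfr, stood at 4.83 ± 0.14, with 8.96, 8.84 and 8.50 in wing disc and 4.09, 3.91 and 3.81 in S2, and its secreted inhibitor aos at 3.85. The ligand gene grk (-2.90 ± 0.16) and the inhibitor gene sty (-2.70 ± 0.14) were lower in wing disc.

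Epithelial junction and polarity genes were mostly higher in wing disc. All 36 were tested, with 26 higher in wing disc, 6 lower and 4 short of the threshold, at a median of 2.19. Grainy head, encoded by grh and a factor of epithelial barriers, had 9.61, 9.39 and 9.06 in wing disc and 3.60, 3.30 and 2.99 in S2 (difference 6.05 ± 0.19, adjusted p = 3.99e-08). The septate junction genes sinu (5.39), Gli (3.89 ± 0.33), Nrg (3.75 ± 0.19), Cont (3.39), pck (2.93 ± 0.10), kune (2.87 ± 0.09) and Nrx-IV (2.66 ± 0.13) were higher. Several of these were well above background in S2 too, as kune was with 11.14, 11.14 and 11.15 in wing disc against 8.30, 8.27 and 8.25 in S2. The Ly6 genes bou (3.73 ± 0.11) and cold (3.34 ± 0.11), which act in septate junction assembly, were higher as well. The septate junction gene cora overlapped between the cell types (0.14 ± 0.22, adjusted p = 0.593). The polarity gene baz (-0.33) and the adherens junction gene p120ctn (-0.15) did not pass, although baz did without S2 G1 replicate 6 (-0.57) and with array weights (-0.44). Lower in wing disc were par-6 (-0.64), Patj (-0.58) and nrv1 (-0.96). For dlg1 and scrib the brightest probe set was lower in wing disc (-1.46 and -1.27), but other probe sets of these genes gave 1.47 for dlg1 and 0.45 to 3.25 for scrib, so their direction is uncertain.

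Planar polarity and Hippo pathway genes were more often higher in wing disc. All 20 genes were tested, with 14 higher, 2 lower and 4 short of the threshold, at a median of 0.88. The atypical cadherin ds had 8.99, 9.14 and 8.79 in wing disc and 2.68, 3.19 and 2.83 in S2 (difference 6.07 ± 0.16), and lft (6.27 ± 0.13), Dlish (6.15 ± 0.16) and fj (4.74 ± 0.10), which act with it, were higher too. The planar polarity cadherin stan stood at 4.96 ± 0.12 and the effector in at 4.94 ± 0.22. The kinase gene hpo had nearly equal values in both, 10.63, 10.63 and 10.68 in wing disc and 10.43, 10.57 and 10.18 in S2 (0.25 ± 0.12, adjusted p = 0.0879), and it passed without S2 G1 replicate 5 (0.34), with array medians subtracted (0.38), with all 12 arrays in the fit and with a variance trend (0.25 in both). The kinase wts (-0.37 ± 0.11) and the coactivator yki (-0.82 ± 0.13) were lower in wing disc by small amounts. The call of wts was lost without wing disc G1 replicate 4 (-0.35), without S2 G1 replicate 5 (-0.31), with array medians subtracted (-0.25) and under cyclic loess (-0.22).

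Cell-surface proteins with leucine-rich or immunoglobulin repeats were more often higher in wing disc. Of 61 with a probe set, 42 were tested, and 30 were higher, 5 lower and 7 short of the threshold, at a median of 0.41 over all 61. The leucine-rich gene trn had 9.55, 9.66 and 9.29 in wing disc and 2.75, 3.09 and 3.22 in S2 (difference 6.48 ± 0.15), rst, a cell sorting gene, stood at 5.84, and Ten-a, a teneurin, at 5.73. The leucine-rich gene kek5 (5.17 ± 0.13) and the Wnt co-receptor gene drl (4.91 ± 0.11) followed. The insulin-binding gene ImpL2 was lower in wing disc, with 9.77, 8.89 and 8.77 against 12.37, 12.59 and 12.30 in S2 (-3.28 ± 0.25).

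Chitin synthesis and cuticle genes were high in wing disc, and the Idgf genes on the same list were mostly high in S2. Of 38 genes with a probe set, 27 were tested, and 19 were higher, 5 lower and 3 short of the threshold, at a median of 0.74 over all 38. Mean intensity reached 5 for 27 of the 38 in wing disc and for 14 in S2. For tested members under 5 in S2 the filter fixed the direction. The chitin synthase gene kkv had 9.74, 10.12 and 9.88 in wing disc and 3.66, 4.13 and 3.65 in S2 (difference 6.10 ± 0.16). The chitin-organising genes serp (6.24 ± 0.17), knk (5.51 ± 0.12) and verm (4.84 ± 0.11) were higher, as were the zona pellucida genes neo (7.22) and mey (6.30). Chitinases Cht2 (4.74 ± 0.10), Cht5 (4.32), Cht7 (5.41) and Cht10 (5.07) were higher as well, and 7 of the 27 tested genes also stand on the tracheal list.

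Imaginal disc growth factors are secreted proteins related to chitinases. Idgf2 had 4.42, 4.82 and 4.51 in wing disc and 12.21, 12.40 and 12.26 in S2 (difference -7.71 ± 0.13). Idgf3 (-6.77 ± 0.12), Idgf1 (-6.34 ± 0.14) and Idgf6 (-5.24 ± 0.26) were lower in wing disc too. Idgf4 was the exception, with 9.27, 9.99 and 9.19 in wing disc and 5.83, 5.67 and 5.84 in S2 (3.70 ± 0.21). Of the 5 Idgf genes tested, a set gathered after values were seen, 4 were thus far above background in S2 and 1 in wing disc. None of them overlapped, beside 79.1% of all genes without overlap. Idgf2, under 5 on every disc array, passed through its S2 arrays, so the filter fixed its direction.

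Ecdysone response genes split. Of 30 with a probe set, 22 were tested, and 12 were higher, 7 lower and 3 short of the threshold, at a median of 0.32 over all 30. With a log2 of 6 required on 3 arrays, which leaves fewer genes to test, 7 were higher. Beside ImpE2, the disc gene ImpE1 had 9.47, 8.11 and 9.62 in wing disc and 3.39, 3.37 and 3.13 in S2 (difference 5.77 ± 0.36), and br, an early factor of metamorphosis, stood at 4.63. The receptor subunit usp had 7.83 on all 3 disc arrays and 8.55, 8.59 and 8.47 in S2 (-0.71 ± 0.09). Its partner EcR was under the filter with means of 5.17 in wing disc and 3.37 in S2. The receptor Hr96 (-1.39) was lower in wing disc, and so was the competence factor ftz-f1, with 7.83, 6.93 and 6.41 in wing disc and 7.55, 8.46 and 8.16 in S2 (adjusted p = 0.0355). The groups overlapped for ftz-f1, and its call was lost without wing disc G1 replicate 3 (-0.94) or 4 (-0.68), without S2 G1 replicate 5 (-0.80) or 6 (-0.95), with array weights (-0.88) and under cyclic loess (-0.85).

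Other cell types of a dissected disc were looked for by their markers. Most muscle precursor genes tested and all 16 tracheal genes tested were higher in wing disc G1. Within the tracheal list, btl was near background in both cell types, and vvl was higher in wing disc but low. Of 18 adult muscle precursor genes with a probe set, 14 were tested, 11 were higher and 3 lower, and the median over all 18 was 3.55. Means of at least 5 were found for 13 of the 18 in wing disc and 4 in S2. The filter thus fixed the direction of tested members under 5 in S2. Their summed intensity was 21268 to 24414 in wing disc and 12730 to 13012 in S2. The mesoderm factor twi had 10.87, 10.39 and 10.46 in wing disc and 3.80, 3.97 and 3.80 in S2 (difference 6.72 ± 0.14), the FGF receptor htl 8.59, 8.80 and 8.49 against 3.15, 3.00 and 3.54 (5.40 ± 0.16), and Him 12.87, 12.45 and 12.71 against 4.05, 4.06 and 4.46. All 3 genes were far above background on every disc array and under it in S2. In such bulk samples, fewer cells of a type and less RNA per cell cannot be told apart. The transmembrane protein gene kon, which guides muscle attachment, stood at 4.76 ± 0.14. The muscle factor nau (-2.16) and zfh1 (-2.66 ± 0.22), which haemocytes share, were lower in wing disc.

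Of 17 tracheal genes with a probe set, 16 were tested and all 16 were higher, with a median of 4.74 over the 17. A mean of at least 5 was reached by 16 of them in wing disc and by 5 in S2. Members under 5 in S2 passed through their disc arrays, so the filter fixed their direction. The summed intensity of the list was 17134 to 18541 in wing disc against 988 to 1366 in S2. The tracheal FGF receptor btl, a defining marker, was near background in both with means of 4.18 and 4.00, and the genes that carried the list, obst-A, Gasp, pio (7.27 ± 0.22), serp and kkv, act in chitin and apical matrix in other epithelia too. The tracheal factor vvl was low, with 5.58, 5.20 and 5.32 in wing disc and 4.18, 3.89 and 4.15 in S2 (1.29 ± 0.14). The part of tracheal cells in the chitin genes was not tested. Fat body, gut, neuron and glia genes were mostly near background: 14 of 24 were under the filter, including the fat body genes Lsp2 and apolpp and the glial factor repo, and their summed intensity was 4022 to 4050 in wing disc and 5499 to 7121 in S2. The glial G protein receptor moody was the furthest of them, with 4.54, 4.17 and 4.38 in wing disc and 9.94, 10.03 and 9.45 in S2 (-5.44 ± 0.17). The lipid transfer gene Apoltp (-3.99 ± 0.19) and the G protein regulator loco (-2.39 ± 0.10) were lower too, and nrv2, a subunit of the sodium pump, was higher (2.93 ± 0.14).

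**Figure D3:**
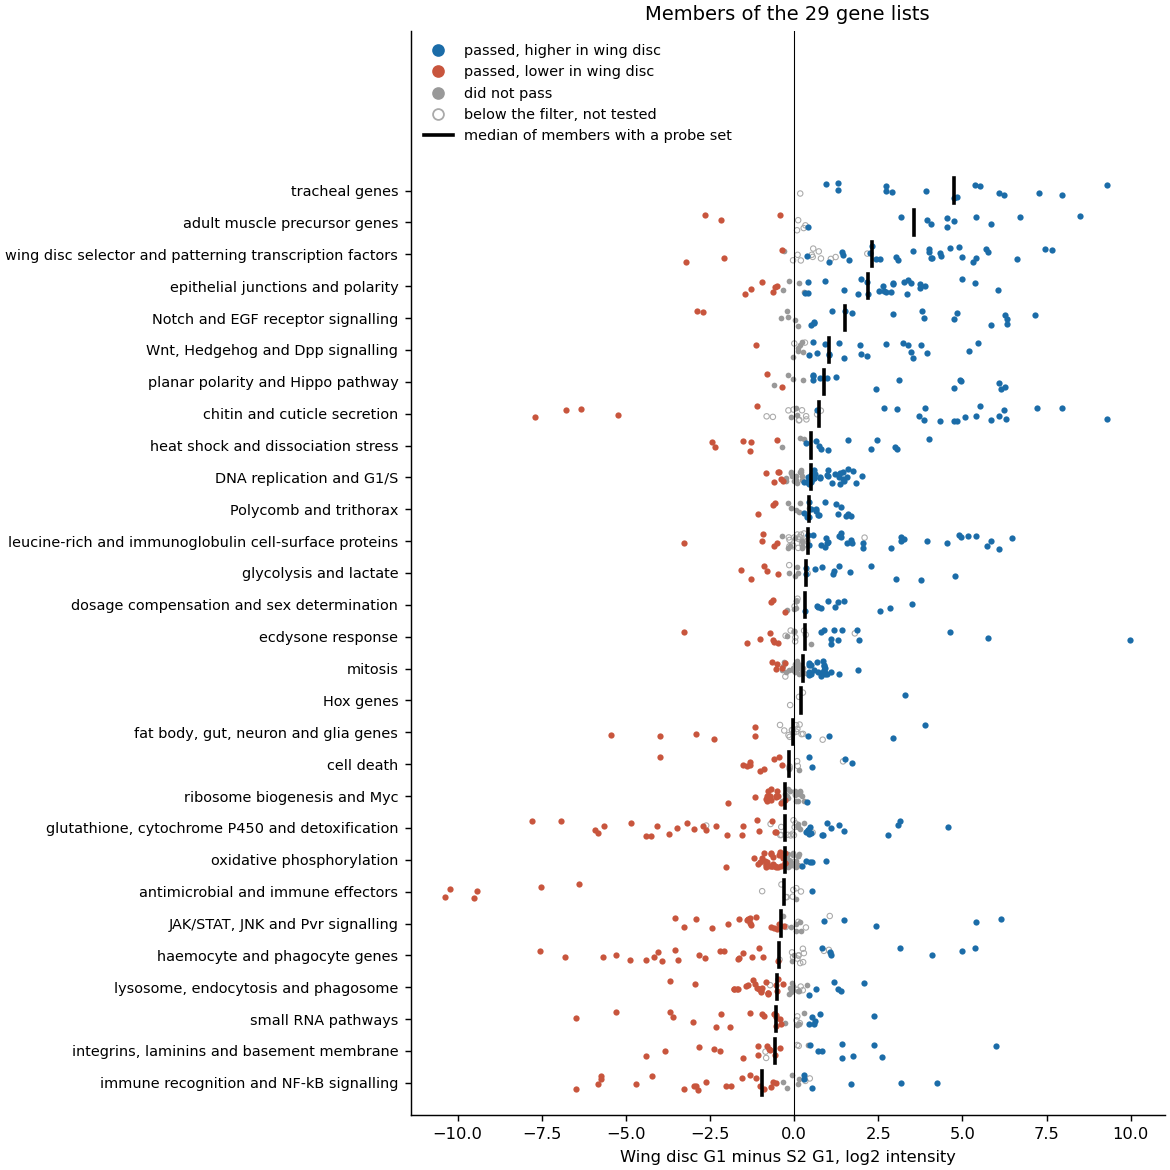
Difference of wing disc G1 minus S2 G1 on the log2 scale for the members of each gene list, with lists ordered by the median of all members with a probe set (black bar). Tracheal, muscle precursor and selector lists have the highest medians, 4.74, 3.55 and 2.32, and immune recognition the lowest, -0.97.

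Haemocyte and phagocyte genes were mostly lower in wing disc. Of 44 with a probe set, 31 were tested, and 22 were lower, 7 higher and 2 short of the threshold, at a median of -0.46 over all 44 and a summed intensity of 17728 to 21017 in wing disc against 38805 to 45597 in S2. The extracellular gene Glt had 5.30, 5.47 and 4.84 in wing disc and 12.13, 12.19 and 11.67 in S2 (difference -6.80 ± 0.20). The glutamine synthetase gene Gs1 stood at -5.69 ± 0.11, the scavenger receptor Sr-CI at -4.87 ± 0.27, the matrix gene Tig at -4.16 ± 0.11, the lamellocyte prophenoloxidase PPO3 at -4.05 ± 0.12 and the phagocytosis receptor NimC4 at -3.45 ± 0.19. The receptor tyrosine kinase Pvr, which keeps haemocytes alive, had 7.17, 7.13 and 7.06 in wing disc and 10.13, 10.87 and 11.01 in S2 (-3.55 ± 0.22). These disc values lie above 7, so Pvr was measured in both cell types.

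Not all genes of the list followed. The crystal cell factor lz was near background in both with means of 2.42 and 2.48. PPO2 overlapped, at 8.28, 6.00 and 6.90 in wing disc and a mean of 7.11 ± 0.14 in S2 (SD, n = 3; difference -0.05 ± 0.48), with the disc arrays widely spread. The engulfment receptor drpr (0.82 ± 0.11), the scavenger receptor emp (5.36) and the peptidase Ance (4.10) were higher in wing disc. Ferritin subunits parted: the heavy chain gene Fer1HCH stood at -1.04 ± 0.10, and the light chain gene Fer2LCH had 11.56, 11.66 and 11.38 in wing disc and 6.47, 6.43 and 6.75 in S2 (4.98 ± 0.13).

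Immune recognition and NF-kB genes were on the S2 side in 21 of 32 tested, with 6 on the wing disc side and 5 not past the threshold, and the median over all 34 with a probe set was -0.97. Peptidoglycan recognition proteins bind bacterial cell walls. Of the 6 tested, a set gathered after values were seen, 5 were lower in wing disc, beside 39.5% of all genes. PGRP-LF, under 5 on every disc array, passed through its S2 arrays, so the filter fixed its direction. PGRP-LF had 4.10, 4.19 and 3.55 in wing disc and 10.49, 10.56 and 10.20 in S2 (difference -6.47 ± 0.19), and PGRP-LB stood at -5.73 ± 0.16. PGRP-LE, an intracellular sensor, was the exception, with 8.70, 8.91 and 8.63 in wing disc and 5.87, 5.62 and 5.26 in S2 (3.16 ± 0.17).

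Downstream of the receptors, the adaptor imd had 5.59, 5.23 and 4.99 in wing disc and 7.98, 7.84 and 7.86 in S2 (-2.62 ± 0.16). The NF-kB factor Rel stood at -2.93 ± 0.10, with 8.85, 8.82 and 8.96 in wing disc and 11.80, 11.90 and 11.72 in S2, and the pathway inhibitor pirk at -5.83. In the Toll branch the ligand spz (-5.74) and the factor dl (-2.04 ± 0.16) were lower by more than Tl itself (-1.02 ± 0.14). The factor Dif (-0.23 ± 0.16, adjusted p = 0.224) and the inhibitor cact (-0.32 ± 0.15, adjusted p = 0.0798) overlapped, and cact passed without S2 G1 replicate 6 (-0.48), with array weights (-0.44) and with a variance trend (-0.32). The processing enzyme SPE (4.24) was higher in wing disc.

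Antimicrobial effectors gave the widest gap of any list in summed intensity, 417 to 476 in wing disc and 106766 to 113260 in S2. Of 16 with a probe set only 8 passed the filter, 6 were lower in wing disc, 1 higher and 1 not past the threshold, and the median over all 16 was -0.31. The antifungal peptide gene Drs had 6.31, 6.69 and 5.82 in wing disc and 13.78, 13.81 and 13.78 in S2 (difference -7.51 ± 0.20). CecB, a cecropin, had 5.17, 4.83 and 5.66 in wing disc and 12.52, 11.35 and 10.98 in S2 (adjusted p = 1.6e-06). The defensin gene Def was not high in either, with 5.94, 6.22 and 5.70 in wing disc and 5.58, 5.47 and 5.26 in S2 (0.52 ± 0.15), and its call was lost without wing disc G1 replicate 3 (0.38) or S2 G1 replicate 6 (0.43). Drsl4 overlapped (0.05 ± 0.13). The list thus holds 6 genes with S2 means over 11 and 10 that were near background or low in both cell types.

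**Figure D4:**
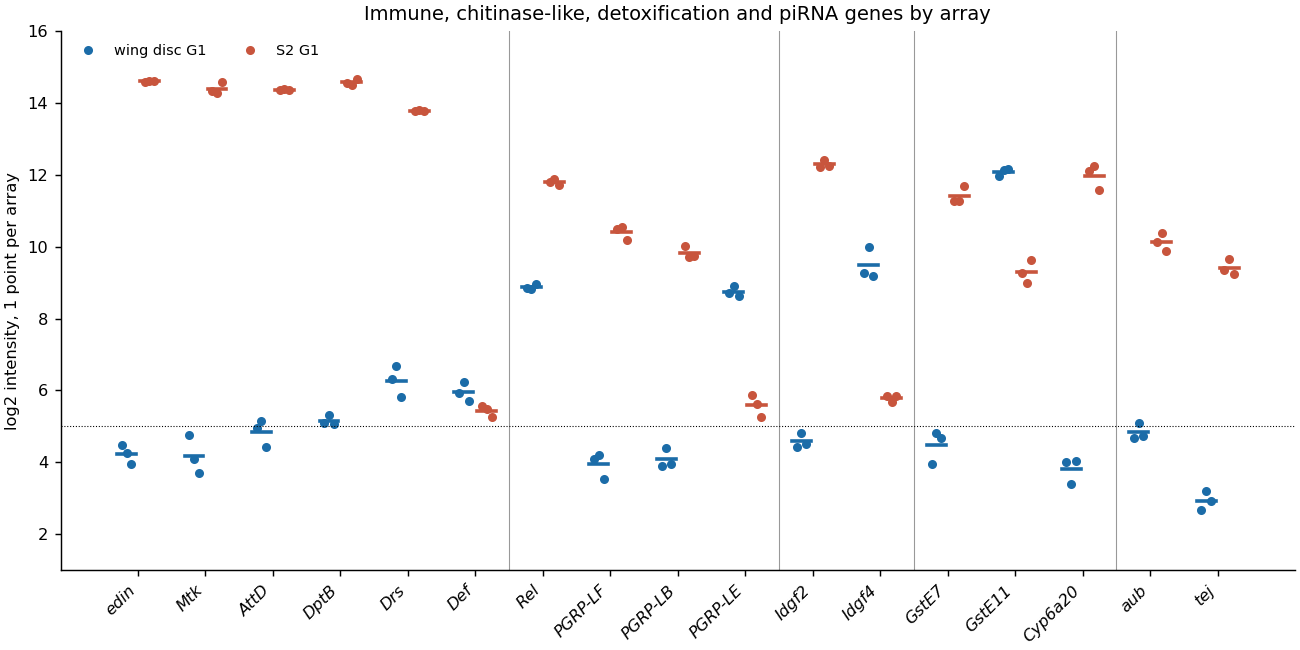
Log2 intensity on each array (points) with the group mean (bar), wing disc G1 in blue and S2 G1 in red, for antimicrobial effectors, peptidoglycan recognition genes with Rel, Idgf genes, detoxification genes and piRNA genes; the dotted line marks 5. The S2 arrays are above the disc arrays except for Def, PGRP-LE, Idgf4 and GstE11.

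Genes of JAK/STAT, JNK, Pvr and FGF signalling were tested in 28 of 32 cases, with 17 lower in wing disc, 5 higher and 6 not past the threshold, and a median of -0.40 over the 32. The FGF ligand bnl was near background in wing disc, at 3.66, 3.97 and 3.79 against 6.24, 7.70 and 7.31 in S2 (difference -3.28 ± 0.33). The growth factor gene Pvf2, a ligand of Pvr, stood at -2.92 ± 0.15. The AP-1 subunit kay (-2.45 ± 0.15) and the JNK phosphatase puc (-1.31 ± 0.22) were lower in wing disc. The signal adaptor gene Traf6 (2.43 ± 0.11) and the cytokine receptor dome (1.49 ± 0.16) were higher and the antagonist of dome, et, was lower (-1.97 ± 0.22). The tumour necrosis factor receptor grnd had 9.30, 9.20 and 9.10 in wing disc and 3.15, 2.93 and 3.07 in S2 (6.15 ± 0.11), and its ligand egr stood at -1.30.

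Basement membrane and integrin genes went both ways. Of 27 with a probe set, 23 were tested, 13 were lower in wing disc, 9 higher and 1 not past the threshold, with a median of -0.58. Collagen IV, the main fibre of basement membrane, was lower in wing disc: Col4a1 had 9.33, 10.18 and 9.31 in wing disc and 12.46, 12.66 and 12.16 in S2 (difference -2.82 ± 0.24), and vkg stood at -2.19 ± 0.24. The laminin genes LanA (-0.73), LanB1 (-1.08) and LanB2 (-0.81) were lower too. The heparan sulfate proteoglycan gene trol (2.61 ± 0.14), Ppn, a papilin (5.98), and the metalloproteinase inhibitor Timp (2.37 ± 0.20) were higher in wing disc. Of the integrins, the beta subunit genes mys (-0.75 ± 0.12) and Itgbn (-2.39 ± 0.13) were lower, and the alpha subunits mew (1.41 ± 0.17) and if (1.44 ± 0.22) were higher.

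Detoxification genes were far apart in both directions. Of 58 genes with a probe set, 44 were tested, 24 were lower in wing disc, 16 higher and 4 not past the threshold, with a median of -0.28 over the 58. All 27 cytochrome P450 genes tested on the array, gathered after values were seen, had a median of -2.71, with 22 lower and 5 higher. Genes near background in wing disc, such as Cyp12d1-d with a mean of 2.92, entered through their S2 arrays, so the filter fixed their direction. The same held in reverse for Cyp6v1, with a mean of 3.54 in S2. Genes under the filter are not in these counts. Cyp6a20 had 4.01, 3.41 and 4.04 in wing disc and 12.11, 12.25 and 11.58 in S2 (difference -8.16 ± 0.22).

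Glutathione S-transferases, which conjugate reactive compounds, differed gene by gene within 1 class. In the epsilon class 5 of 11 were higher and 5 lower, over a range from -6.93 to 3.16. Over all genes 34.8% were higher and 39.5% lower. The epsilon and delta sets were gathered after values were seen. GstE7 had 3.96, 4.82 and 4.66 in wing disc and 11.27, 11.28 and 11.70 in S2 (-6.93 ± 0.23), and GstE9 stood at -5.91 ± 0.17 and GstE6 at -5.66 ± 0.12. GstE5, GstE1 and GstE11 were higher in wing disc (3.16 ± 0.25, 3.09 ± 0.23 and 2.78 ± 0.16). GstE7, under 5 on every disc array, passed through its S2 arrays, so the filter fixed its direction. Probes of such close relatives may share sequence, which the file does not report. In the delta class 6 of 8 were lower, and the single sigma class gene, GstS1, was higher (4.58 ± 0.11). The copper-binding gene MtnA (-4.84 ± 0.23), and the glutathione synthesis gene Gclc (-2.70 ± 0.14) were lower in wing disc. The stress sensor Keap1 was lower too, with 5.76, 5.94 and 5.52 in wing disc and 7.77, 7.88 and 7.58 in S2, while its partner cnc was higher (0.83 ± 0.10).

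Lysosome and phagosome genes were lower in wing disc in 23 of 38 tested, with 6 higher and 9 not past the threshold, and the median over the 42 with a probe set was -0.52. The vacuolar ATPase, which acidifies lysosomes, was lower in all 9 subunit genes tested, by 0.84 to 1.78, a set gathered after values were seen. VhaAC45 had 9.68, 9.75 and 9.79 in wing disc and 11.52, 11.58 and 11.45 in S2 (difference -1.78 ± 0.10). The protease CtsL1 (-1.80 ± 0.11), the sterol carrier Npc2b (-2.95 ± 0.25) and the hexosaminidase Hexo2 (-3.70 ± 0.14) were lower as well. The lysosomal factor Mitf (2.08) was higher in wing disc.

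Small RNA genes were more often lower in wing disc, and several with the widest differences act in the piRNA pathway, which silences transposons in the germline. Of 31 with a probe set, 27 were tested, 17 were lower in wing disc, 6 higher and 4 not past the threshold, with a median of -0.53. The Tudor protein gene tej had 2.68, 3.19 and 2.93 in wing disc and 9.35, 9.65 and 9.24 in S2 (difference -6.48 ± 0.16). The Argonaute aub had 4.68, 5.09 and 4.74 in wing disc and 10.12, 10.39 and 9.89 in S2 (-5.30 ± 0.16), and rhi (-3.69 ± 0.12), mael (-3.61 ± 0.18) and AGO3 (-2.32 ± 0.23) followed. The disc values of tej, aub, rhi and AGO3 averaged under 5. The germline helicase vas and the gonadal factor tj were near background in both cell types, and piwi was under the filter with means of 4.43 and 5.00. The miRNA and siRNA cofactors loqs (2.38 ± 0.12) and r2d2 (0.78 ± 0.10) were higher in wing disc.

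Replication genes were more often higher in wing disc G1, and for many of them the difference depended on the gate. All 50 genes were tested, with 30 higher, 6 lower and 14 short of the threshold, at a median of 0.49 in the 2C gate and -0.29 in the 4C gate. The difference in G1 minus the difference in G2 passed for 31 genes upward and 1 downward, against 3.16% upward and 2.17% downward, 5.33% together, over all genes. Without 1 array the upward count was 28 to 33 and the downward count 0 or 1. With replicate number as a block these counts were 38 and 1, against 6.09% and 5.73%.

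The origin recognition complex marks replication origins. Orc1 had 8.79, 8.29 and 8.39 in wing disc and 6.87, 6.90 and 6.95 in S2 (difference 1.58 ± 0.14), and in G2 the difference was -0.57, so the gates differed by 2.15 ± 0.23 (adjusted p = 0.000569). Orc2 stood at 1.35 ± 0.09 in G1 and -0.21 in G2 (1.56 ± 0.14, adjusted p = 0.000402). All 4 subunits tested were higher in wing disc G1, by 0.48 to 1.58, a set gathered after values were seen, as was the Mcm set. The Mcm helicase unwinds DNA, and its 5 genes tested were higher in wing disc G1 by 1.33 to 2.02 and in G2 by 0.20 to 0.79. Mcm3 had 11.46, 11.55 and 11.40 in wing disc and 9.32, 9.60 and 9.44 in S2 (2.02 ± 0.11), and its gates differed by 1.23 ± 0.20 (adjusted p = 0.00517). Mcm5 stood at 1.85 ± 0.10.

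Of 8 genes of Mcm loading and activation, also gathered after values were seen, 5 were higher in wing disc G1. Another 1 was lower and 2 did not pass, over a range from -0.40 to 1.75. The loaders Cdc6 (1.61 ± 0.17) and dup (0.76 ± 0.15), which encodes Cdt1, were higher in wing disc in G1 and had differences of -0.22 and -1.05 in G2. The polymerase alpha subunits PolA1 (-0.83 ± 0.11) and Prim2 (-0.46 ± 0.12) were lower in wing disc in G1, with -2.09 and -1.90 in G2, so the gates differed by 1.25 ± 0.19 and 1.44 ± 0.19. The nucleotide enzymes dnk (-0.60 ± 0.10) and Ts (-0.47 ± 0.11) behaved alike in sign, with -1.72 and -1.45 in G2. Switches of the G1/S transition were close between the cell types: CycE had 8.41, 8.62 and 8.57 in wing disc and 8.11, 8.37 and 8.47 in S2 (0.22 ± 0.13, adjusted p = 0.146), and CycD (0.16 ± 0.13), E2f2 (0.05 ± 0.12) and Rbf (-0.25 ± 0.10) did not pass either. CycE passed with array medians subtracted (0.34), under cyclic loess (0.37) and with array weights (0.33), and Rbf without S2 G1 replicate 6 (-0.27), with all 12 arrays in the fit or a log2 of 6 required (-0.25 in both) and with array weights (-0.23). Cdk2 was higher in wing disc (1.46 ± 0.12).

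**Figure D5:**
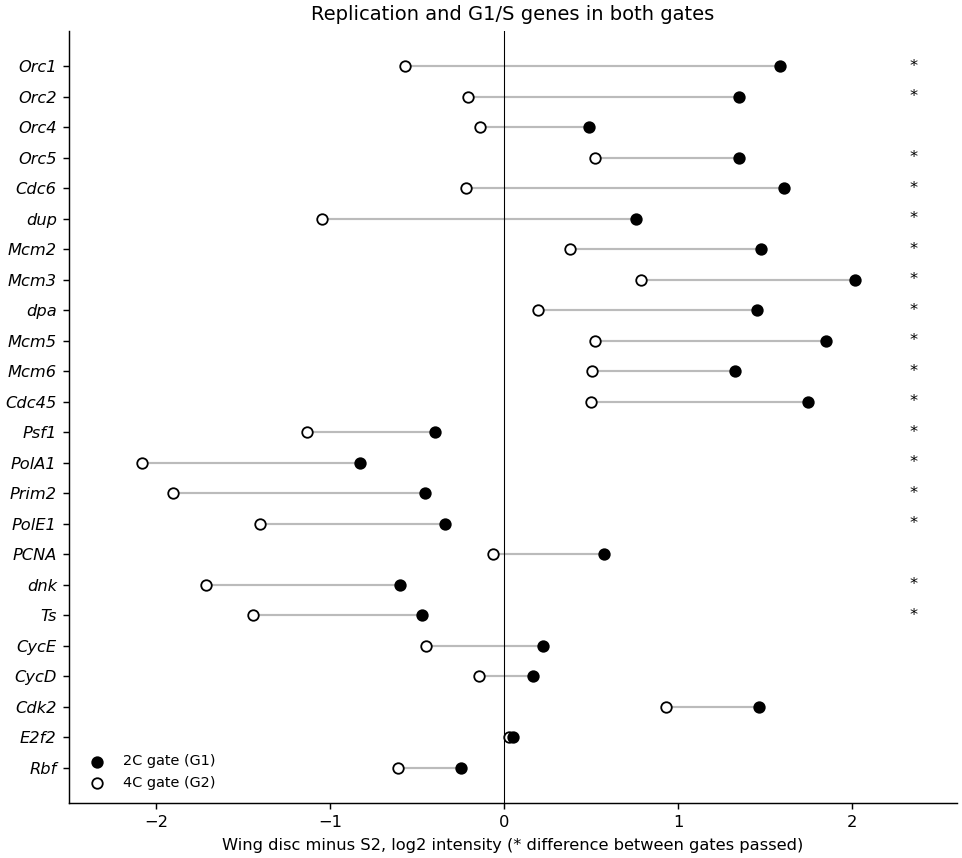
Difference of wing disc minus S2 on the log2 scale for replication and G1/S genes in the 2C gate (filled) and the 4C gate (open), with a star where the difference between the gates passed an adjusted p under 0.05. The 24 genes drawn were chosen from the 50 tested. The filled point lies to the right of the open one for all 24, and 17 of them carry a star. Over all 50 genes the difference between the gates passed upward for 31 and downward for 1.

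Mitosis genes were higher in wing disc in 22 of 48 tested, lower in 5 and not past the threshold in 21, with a median of 0.26 over the 49 with a probe set. The lower count was 3 without wing disc G1 replicate 2 or 4 or S2 G1 replicate 4 or 5, and 8 without S2 G1 replicate 6. The differences were small next to those of identity genes. The securin gene pim had 9.55, 9.57 and 9.57 in wing disc and 8.63, 8.83 and 8.68 in S2 (difference 0.85 ± 0.10), the centrosome gene spd-2 stood at 1.34 ± 0.10, the checkpoint gene Bub3 at 0.91 ± 0.10 and CycB at 0.80 ± 0.16. The kinetochore gene Mis12 was lower (-0.65 ± 0.11). The Cdc25 phosphatase twe, known for its role in meiosis, was furthest at 1.89. The gates differed upward for 8 of the 48 genes, for 16 with the replicate block, and for 7 to 13 when 1 array was left out, the highest being 12 without S2 G2 replicate 4 and 13 without S2 G1 replicate 5.

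Ribosome biogenesis and oxidative phosphorylation genes were more often lower than higher in wing disc, by small amounts that scaling moved in part. Ribosome biogenesis genes were lower in wing disc in 15 of 33, higher in 1 and not past the threshold in 17, with a median of -0.26 that moved to -0.14 when array medians were subtracted. Surf6 (-1.97 ± 0.12), Mat89Ba (-1.16 ± 0.13) and Nop56 (-0.77 ± 0.12), which act in ribosome assembly, were lower. Max, the partner of Myc, was the 1 higher gene (0.40 ± 0.14), and its call was lost without any one array except S2 G1 replicate 6 (0.31 to 0.43 in those 5 fits). Oxidative phosphorylation genes were lower in 29 of 52 tested, higher in 5 and not past the threshold in 18, with a median of -0.31 over those tested, which moved to -0.18 with 23 lower when array medians were subtracted and to -0.35 with 30 lower under loess. ATPsyngamma, a subunit of the ATP synthase, had 12.57, 12.58 and 12.45 in wing disc and 13.49, 13.48 and 13.48 in S2 (difference -0.95 ± 0.09). The complex III genes UQCR-6.4 (-1.07 ± 0.09) and Cyt-c1 and the complex I gene ND-B18 (-1.18 ± 0.11) were lower too, and the complex I gene ND-18 was higher (0.94 ± 0.11). The higher count was 3 without wing disc G1 replicate 3 or 4 or S2 G1 replicate 4 or 5. The synthase subunits ATPsynC (0.52) and ATPsynB (0.46) went the other way, so its subunit genes did not all go one way.

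Glycolysis genes were higher in wing disc in 12 of 21 tested, lower in 5 and not past the threshold in 4. The regulated enzyme Pfk had 9.35, 9.62 and 9.43 in wing disc and 6.00, 6.62 and 6.75 in S2 (difference 3.01 ± 0.20), and Tpi (1.66 ± 0.12), Pgk (1.18 ± 0.11) Eno (1.16 ± 0.11) and the glycogen primer gene Gyg (3.77 ± 0.17) were higher. The gluconeogenic enzyme fbp was high in wing disc too, with 11.09, 10.93 and 11.06 against 6.41, 6.30 and 6.00 in S2 (4.79 ± 0.13). The other gluconeogenic gene named here, Pepck1, was lower (-1.28 ± 0.18). Aldolase, Ald1, gave -0.48 by its brightest probe set and 1.94 by another, and the first of these was lost without wing disc G1 replicate 2 (-0.41) or 4 (-0.40), without S2 G1 replicate 5 (-0.49) or 6 (-0.34), with array medians subtracted (-0.36) and under cyclic loess (-0.41). The glucose transporter Glut1 had 5.99, 6.26 and 6.04 in wing disc and 7.55, 7.62 and 7.83 in S2 (-1.57 ± 0.12) in G1, and a difference of -0.06 in G2 (gates differed by -1.51 ± 0.22, adjusted p = 0.00287).

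Heat shock and dissociation genes went both ways. Of 20 heat shock and dissociation genes, all tested, 11 were higher in wing disc, 6 lower and 3 not past the threshold, with a median of 0.51 and a summed intensity of 53003 to 54174 in wing disc against 28747 to 33393 in S2. The small chaperone gene Hsp27, which ecdysone also induces, had 13.45, 13.32 and 13.45 in wing disc and 9.30, 9.51 and 9.36 in S2 (difference 4.02 ± 0.10), the chaperone cofactor gene stv stood at 3.06 ± 0.18 and Hsp26 at 3.00 ± 0.25. The stress-induced gene Sesn was lower (-2.36 ± 0.16). The inducible chaperone Hsp68 had 8.76, 9.21 and 9.04 in wing disc and 6.91, 7.50 and 7.81 in S2 (1.60 ± 0.23), and the stress factor Atf3 stood at 2.27 ± 0.27. The AP-1 genes kay and Jra (-0.50) and their target puc were lower in wing disc. The part of tissue dissociation in these and other differences was not tested. Among cell death genes 10 of 16 tested were lower in wing disc, 4 higher and 2 not past the threshold, with the caspase gene Strica at -3.99 the flavoprotein gene AIF at -1.33 ± 0.12, the checkpoint kinase gene lok at 1.51 ± 0.11 and the effector caspase gene Dcp-1 at 1.71 ± 0.10.

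Sex determination and dosage compensation genes were more often higher in wing disc. Of 21 with a probe set, 18 were tested, 11 were higher, 3 lower and 4 not past the threshold, with a median of 0.34. The switch gene Sxl, whose protein is made in females, had 8.30, 7.94 and 8.19 in wing disc and 5.06, 5.74 and 5.96 in S2 (difference 2.56 ± 0.23), and its target tra had 8.43, 8.57 and 8.53 against 5.47, 5.55 and 6.02 (2.83 ± 0.15). The terminal factors dsx (1.47 ± 0.20) and fru (1.22 ± 0.24), the Sxl activators sc (3.49 ± 0.17) and da (1.30 ± 0.14), and her (1.01 ± 0.15) were higher too. The size for dsx depends on the probe set: a second one, near background in S2 at 2.56 against 7.11 in wing disc, gave 4.56. Cofactors were close, with ix at 0.79 ± 0.11, fl(2)d at 0.71 ± 0.13, vir at 0.34 ± 0.12 and tra2 at 0.01 ± 0.10, and the call of vir was lost without wing disc G1 replicate 2 (0.32) or 4 (0.29) and without S2 G1 replicate 4 (0.29) or 6 (0.28), without a filter and with a variance trend. Of the genes of the male dosage compensation complex, msl-1 was lower (-0.63 ± 0.15), msl-2 overlapped although it passed (-0.68 ± 0.23, adjusted p = 0.0284), mle was barely lower (-0.28 ± 0.11, adjusted p = 0.0451), mof did not pass (-0.21 ± 0.15), nor did Clamp (0.06 ± 0.14) or Unr (0.05 ± 0.17), and msl-3 was higher (0.68 ± 0.12). The call of msl-2 was lost without wing disc G1 replicate 2 (-0.47), without S2 G1 replicate 4 (-0.66) or 5 (-0.52) and under cyclic loess (-0.58). The call of mle was lost without any one array except S2 G1 replicate 6 (-0.32 to -0.21 in those 5 fits), with array medians subtracted (-0.16), under cyclic loess (-0.13), without a filter and with a variance trend, and mof passed without S2 G1 replicate 6 (-0.34). By chromosome arm the median difference was 0.07 over 1120 genes of X, against -0.18 on 2L, -0.11 on 2R, 0.02 on 3L and -0.04 on 3R, and 0.26 over the 39 genes of chromosome 4. Polycomb and trithorax genes were higher in wing disc in 16 of 25, lower in 3 and not past the threshold in 6, with Sfmbt at 1.70, the remodelling complex genes Bap60 and brm at 1.59 ± 0.11 and 1.25 ± 0.11, trx at 1.54 and the GAGA factor gene Trl at -1.08.

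Whether a cell type difference belonged to the 2C gate was tested across all 12 arrays. Of the 8326 probe sets, 419 (5.03%) had a difference in G1 that departed from that in G2, 245 (2.94%) upward and 174 (2.09%) downward. The counts ran from 266 to 575 when 1 array was left out, with 275 without wing disc G1 replicate 4, 272 without S2 G1 replicate 4, 266 without wing disc G2 replicate 4 and 273 without S2 G2 replicate 5. When the replicate number was a block within each cell type, 924 passed, 467 (5.61%) upward and 457 (5.49%) downward. Most differences named above were thus not shown to depend on the gate, and a difference between gates that missed the threshold does not show that they were equal.

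Outside replication, 6 of 14 muscle precursor genes tested differed between the gates upward and 0 downward, and 8 and 0 with the block. Tracheal genes had 0 upward and 5 of 16 downward, and 0 and 7 with the block, and disc selectors had 0 upward and 9 of 32 downward, and 1 and 9 with the block. Without 1 array the muscle precursor count was 4 to 6, the tracheal count 3 to 5 and the selector count 4 to 7, with 0 the other way in each. The tracheal count was 3 without wing disc G1 replicate 2 or 4, wing disc G2 replicate 2 or 4, S2 G1 replicate 5 or 6 or S2 G2 replicate 4. The selector count was 7 without wing disc G1 replicate 3 and at most 6 without any other array. Thus htl had a difference of 5.40 in G1 and 3.99 in G2 (gates differed by 1.41 ± 0.28, adjusted p = 0.0149), and verm had 4.84 in G1 and 5.58 in G2 (-0.74 ± 0.14, adjusted p = 0.00945). The basement membrane genes Col4a1, vkg and SPARC stood at -2.82, -2.19 and -0.42 in G1 and at -4.41, -3.96 and -1.87 in G2, and their gates differed by 1.59 ± 0.33, 1.77 ± 0.31 and 1.45 ± 0.17. Without wing disc G1 replicate 4 the G1 difference of SPARC, -0.33, did not pass. Among immune effectors, Mtk (-10.21 in G1, -8.16 in G2) and Drs (-7.51 in G1, -5.32 in G2) were further apart in G1.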

How the data were processed

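Polyadenylated RNA of sorted cells was measured on 12 Affymetrix Drosophila arrays, of which 6 (wing disc G1 replicates 2, 3 and 4, S2 G1 replicates 4, 5 and 6) make up the comparison. The deposited values are linear probe set intensities, made with RMA and R 2.15.2 per the submitters' processing notes, and no source used here gives the steps within RMA. The design had assumed log2 values, so log2 of the deposited intensity was taken first. The 183 control probe sets were left out, and a probe set was kept where 3 or more of the 6 arrays reached a log2 of 5. The platform annotation of 2016 gives 1 gene for 13646 of the 18769 others, several for 402 and none for 4721; 13543 gene IDs were found in the RefSeq table, and 0 symbols changed. Each gene was followed through the probe set with the highest mean. No detection calls were used.

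A linear model with moderated errors (limma 3.58.1, R 4.3.3; residual df 4, prior df 3.87) was fitted to the 6 arrays, with two-sided tests, Benjamini-Hochberg adjustment over 8326 probe sets and an adjusted p under 0.05. The difference between gates was fitted on 12 arrays (residual df 8, prior df 3.53). The model code was tested on simulated data. Same-numbered G1 and G2 arrays of a cell type deviated together (correlations of 0.31 to 0.52 in 6 pairs, against -0.50 to 0.02 in 12 pairs of different number). Each group was centred on its own mean, so these ranges are not independent of each other. Numbers were therefore taken as a possible pairing of the gates, and a block fit was run as an alternative. The gate differences of single genes, with their errors and adjusted p, come from the fit without the block. Tables and plots used Python 3.11.15, pandas 2.3.3, numpy 2.4.6 and matplotlib 3.10.9.

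The members and the 29 gene lists (886 genes with a probe set of their own, 750 tested) were chosen with earlier results of these data known, and 6 list names that match another gene were left out. Named were the 15 largest and 15 smallest separated changes, 4 members per list with the smallest p, all measured Hox and dosage compensation genes and the identity genes; further examples were chosen after their values were seen. Alternatives were all 12 arrays, other filters, array medians, cyclic loess, a variance trend, array weights, the mean of a gene's probe sets and leaving out each array.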

Additional observations from a re-analysis of the deposited data

Results flagged for a closer look

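Each value here is the wing disc minus S2 difference in G1 minus that in G2, on the log2 scale, for a gene whose test of the difference between the gates passed. That test was the fit without a replicate block. Over all probe sets 419 passed. No cause was tested.

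Replication and cell cycle genes stood higher in wing disc relative to S2 in the 2C gate than in the 4C gate, with Orc1 at 2.15, Cdc6 at 1.83, dup at 1.81, Orc2 at 1.56, Prim2 at 1.44, Mcm5 at 1.33, PolA1 at 1.25, Mcm3 at 1.23, dnk at 1.12 and Ts at 0.97. The phosphatase gene twe (1.36), spd-2 (0.98), pim (0.87) and lok (0.74) were on the same side. Muscle precursor genes were too, with kon at 1.50, htl at 1.41 and twi at 1.13, as were the basement membrane genes vkg (1.77), Col4a1 (1.59) and SPARC (1.45). Others above 0 were mael (1.66), scrib (1.60), E(spl)m6-BFM (1.53), egr (1.46), Prx6c (1.22) and nrv2 (1.06). The value of scrib is that of its brightest probe set, at -1.27 in G1, while its other probe sets gave 0.45 to 3.25 in G1.

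Pattern and signalling genes had a lower value in G1, with eyg at -1.51, sc at -1.35, dpp at -1.13, vvl at -1.04, magu at -1.02, pnr at -0.98, dlp at -0.93, ara at -0.75, caup at -0.67 and ci at -0.60. Chitin genes followed, with Idgf4 at -1.07, Cht2 at -0.84, verm at -0.74 and Cht10 at -0.70, as did Ance (-1.49), GstS1 (-0.99), stv (-0.93), bou (-0.85) and emp (-0.71). The immune genes Drs (-2.20), Mtk (-2.05) and edin (-0.81) and the transporter genes Glut1 (-1.51) and yin (-1.30), lower in wing disc by their G1 difference, were further below S2 in G1 than in G2.

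Of these 50 genes, 37 kept the call in all 16 alternatives, which did not include the mean of a gene's probe sets. The other 13 were lost when some single arrays were left out, over the following ranges of value in those fits. The loss came with 11 of the 12 arrays for ci (-0.64 to -0.53), dpp (-1.23 to -0.92), Cht10 (-0.74 to -0.59) and Idgf4 (-1.16 to -0.92), and with 10 for caup (-0.71 to -0.57), egr (1.33 to 1.61) and vvl (-1.15 to -0.82). It came with 9 for stv (-0.98 to -0.78) and ara (-0.77 to -0.67), 7 for kon (1.32 to 1.53) and 5 for edin (-0.82 to -0.69) and lok (0.68 to 0.74). For magu it came without wing disc G1 replicate 2 (-0.95) or 4 (-0.94), S2 G1 replicate 4 or S2 G2 replicate 5 (-0.90). In addition, ci, dpp, stv, Cht10, caup, egr and vvl were lost without a filter, at their values above, and egr under cyclic loess (1.42).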

How the results depend on the processing

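Of 285 genes examined one by one in the G1 comparison, 266 kept their direction and side of the threshold in all alternatives run, up to 14 each, while 10 lost a call, 6 gained one and 4 changed sign (Ald1 both lost its call and changed sign). The changes of sign came with the mean of all probe sets of a gene, at 0.0054 for dlg1, 0.73 for Ald1, 0.79 for scrib and -0.92 for tkv, whose probe sets disagree. The count of 6091 probe sets stayed within 1.5 times under each alternative, from 5488 with a log2 of 6 required to 7037 without a filter, and from 5584 to 6189 with 1 array left out. Scaling moved the split, with 3429 higher and 2841 lower once array medians were subtracted. No paired analysis was possible because wing disc G1 and S2 G1 share only replicate number 4, and no source ties those 2 samples. For the difference between gates, the fit with a replicate block gave 924 probe sets, 467 higher and 457 lower, against 419 without it. Leaving out 1 array gave 266 to 575 in all, 159 to 331 higher and 102 to 244 lower, and the cause was not tested. The count moved by over 1.5 times without wing disc G1 replicate 4 (275), wing disc G2 replicate 4 (266), S2 G1 replicate 4 (272) or S2 G2 replicate 5 (273). Signal over background limits folds where one cell type lies under 5, and no detection calls were used.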
